A study of Mus musculus with 10 samples.

Results

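Complement is a cascade of proteins that tags material for removal and calls in phagocytes. In its classical branch the recognition molecule C1q, built from A, B and C chains, binds its target and leads to cleavage of C4 and then of C3, whose large fragments coat the target, while the small fragments C3a and C5a act through receptors on phagocytes. In the brain the C1q chains are made mainly by microglia and C4 in good part by astrocytes and oligodendrocytes, C1q and C3 are known to tag synapses for removal, and complement proteins are found around amyloid plaques in mouse models and in Alzheimer's disease.

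The genes described here are 8 components and receptors of this cascade, C1qa, C1qb, C1qc, C3, C4b, C3ar1, C5ar1 and Serping1, chosen by name from the 53700 gene identifiers counted in every library. The data are 10 bulk RNA-seq libraries of cortex from female mice aged 4 months, 5 with the genotype label "Idol; Camk2a-cre WT" and 5 with "Idol; Camk2a-cre cKO", all on 5XFAD, which the study calls 5XFAD and 5XFAD;Neu cKO. All 10 mice were described as carrying the 5XFAD transgenes, human sequences with mutations of familial Alzheimer's disease driven by mouse Thy1 sequence, so every comparison is within an amyloid model and no mouse without the transgenes was measured here. In the 5XFAD;Neu cKO mice floxed Idol (Mylip), which encodes a ubiquitin ligase for lipoprotein receptors, was to be removed by Camk2a-Cre, a driver active in excitatory neurons of the forebrain and not in the glia that make most brain complement. The word WT in the label of the 5XFAD group does not say whether those mice lacked the Cre, the floxed alleles or both. The comparison asks how complement transcripts of the amyloid-bearing cortex differ when Idol is deleted in neurons.

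Libraries held 4320504 to 7466192 reads on genes in the 5XFAD group and 5148499 to 7246659 in the 5XFAD;Neu cKO group. QuantSeq libraries give reads only near the 3′ end of a transcript. Values are read counts scaled to a common library total (CPM, per 1e6 reads), in the order of replicates 1 to 5. That total was the reads on the genes tested times edgeR's TMM normalization factor of the library. The factors were 0.908 to 1.03 in 5XFAD and 0.972 to 1.06 in 5XFAD;Neu cKO. Fold changes are log2 of 5XFAD;Neu cKO over 5XFAD, so that a negative value means less transcript in 5XFAD;Neu cKO. Mylip itself had no lower mean where the labels give 5XFAD;Neu cKO, at 11.2 ± 2.27 CPM in 5XFAD and 14.8 ± 4.90 in 5XFAD;Neu cKO (SD, n = 5; edgeR's quasi-likelihood test, Benjamini-Hochberg adjusted p = 0.777). Reads at the 3′ end need not report a deletion of upstream exons, so these counts do not settle whether the gene was deleted, and other measurements of Idol were not analysed here. Which of the genes mt-Nd3 and Gm28438 took most of the reads on both also went with the groups. This split placed 5XFAD replicate 2 with 5XFAD;Neu cKO replicates 1, 3, 4 and 5, and 5XFAD;Neu cKO replicate 2 with the other 5XFAD libraries.

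Transcripts of the C1q B and C chains were less abundant in 5XFAD;Neu cKO cortex, and those of the A chain, C4b and C3ar1 had lower means without passing the test. C1qb fell 2.31-fold, with no overlap between the groups, and C1qc fell 1.77-fold. Serping1, the inhibitor, had nearly equal means, and C3 and C5ar1 were too scarce to compare. Of the 6 members with more than 10 reads in all, 2 passed an adjusted p of 0.05, both lower, against 0.218% of all 19268 genes tested in either direction, 0.161% lower and 0.0571% higher. At an unadjusted p under 0.05 there were 5 members, all lower, against 7.95% of all genes in either direction and 4.01% lower. The median log2 fold change of the 6 members was -0.76, beside -0.00056 over all genes tested. In bulk tissue, fewer cells of a type and less RNA per cell cannot be told apart, which holds for every value given here.

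**Figure D1:**
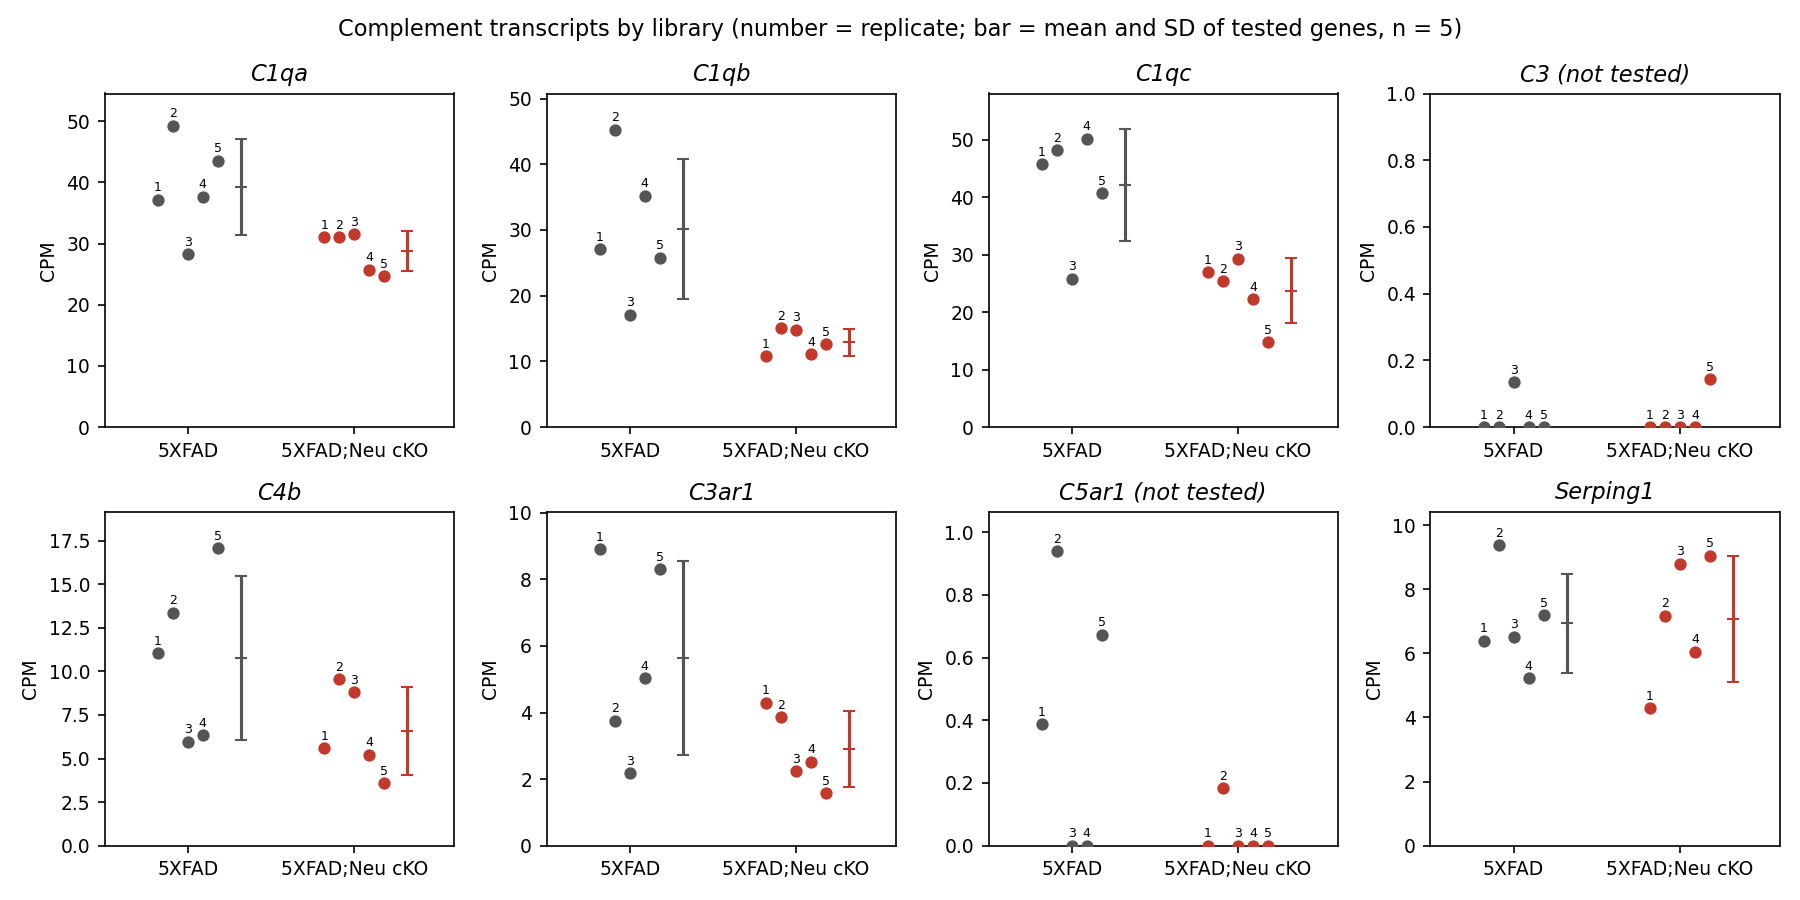
CPM of each of the 8 complement genes (vertical axis, linear from 0, one scale per panel) in every library, by group; numbers give the replicate, and bars give the mean and SD of 5 libraries for the 6 tested genes. For C1qb all 5 libraries of 5XFAD;Neu cKO (10.8 to 15.1 CPM) lie below the lowest 5XFAD library (17.1), for C1qa and C1qc 5XFAD replicate 3 lies among them, and C3 and C5ar1 rest on single reads.

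The 3 C1q genes lie side by side on the minus strand of chromosome 4 (GRCm39), in the order C1qb, C1qc, C1qa, within 20153 bases. C1qb (ENSMUSG00000036905) runs from chr4:136606009-136613511, C1qc (ENSMUSG00000036896) from chr4:136616466-136620376 and C1qa (ENSMUSG00000036887) from chr4:136623223-136626161, and each has 3 exons. The sequences just before the RefSeq starts of the genes that passed the test are shown because these neighbours moved in the same direction. RefSeq's promoter table, which is built on GRCm38.p6, held 5 of the 8 members, C1qb and C1qc among them, and the 250 bases before each start matched GRCm39 exactly once. They are given 5′ to 3′ on the minus strand, with capitals marking a match to GAGGAAGT, a core to which the myeloid factor PU.1 is known to bind, here on the opposite strand as its reverse complement. The C1qb window is chr4:136613512-136613761, and the C1qc window is chr4:136620226-136620475. Most of the C1qc window, up to base 136620376, lies inside the Ensembl model of that gene.
C1qb: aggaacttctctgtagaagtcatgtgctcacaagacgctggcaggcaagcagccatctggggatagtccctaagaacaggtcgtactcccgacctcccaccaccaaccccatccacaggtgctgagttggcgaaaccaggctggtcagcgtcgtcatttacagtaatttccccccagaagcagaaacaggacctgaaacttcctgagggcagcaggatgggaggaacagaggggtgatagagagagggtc
C1qc: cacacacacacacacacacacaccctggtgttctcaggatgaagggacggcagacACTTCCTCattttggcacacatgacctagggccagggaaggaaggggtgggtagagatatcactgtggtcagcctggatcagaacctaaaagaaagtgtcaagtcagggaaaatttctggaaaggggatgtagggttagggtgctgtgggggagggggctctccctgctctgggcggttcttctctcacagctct

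GAGGAAGT was found on either strand in 3.20% of the 32851 promoters of 300 bases in that table. Among the 5 members it was only in C1qc, from -195 to -188 relative to the RefSeq start. Only this exact string was searched, and variants of it were not counted. The C1qb window holds acttcctg, which differs from the marked ACTTCCTC in its last base only. The core of an interferon-stimulated response element, GAAA repeated after any 2 bases, was in 3.44% of promoters and in no member. TATAAA was in 13.6% of promoters and in those of C3, at +14, and C3ar1, at -235. These are matches of letters and were not tested for binding.

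C1qb encodes the B chain, 1 of the 3 chains of which each C1q molecule holds equal numbers. It was counted 140, 193, 126, 189 and 115 times in the 5XFAD libraries and 58, 82, 113, 66 and 88 times in the 5XFAD;Neu cKO libraries. As CPM this was 27.1, 45.3, 17.1, 35.2 and 25.8 in 5XFAD and 10.8, 15.1, 14.8, 11.1 and 12.6 in 5XFAD;Neu cKO. Every 5XFAD library was above every 5XFAD;Neu cKO library, a separation in this direction that 0.721% of all genes tested had, and 1.30% had one in either direction. The means were 30.1 ± 10.6 and 12.9 ± 2.00 CPM (SD, n = 5), so the 5XFAD;Neu cKO level was 43.2% of the 5XFAD level. The log2 fold change was -1.21 (SE 0.20, 95% interval -1.62 to -0.80; edgeR's quasi-likelihood test, Benjamini-Hochberg adjusted p = 0.000407), which placed C1qb 11th of all genes by p. The exact two-sided permutation test of log2 CPM over all relabellings of the libraries gave p = 0.00794, the smallest it can give. The spread was wider in 5XFAD, with a coefficient of variation of 35.3%, than in 5XFAD;Neu cKO, with 15.5%.

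C1qc encodes the C chain. Its level was 45.7, 48.1, 25.8, 50.1 and 40.6 CPM in 5XFAD and 26.9, 25.4, 29.3, 22.2 and 14.8 CPM in 5XFAD;Neu cKO. The groups met at a single library, 5XFAD replicate 3, whose 25.8 CPM lay inside the 5XFAD;Neu cKO range, and the other 4 were above it. The means were 42.1 ± 9.77 and 23.7 ± 5.61 CPM (SD, n = 5), with a log2 fold change of -0.82 (SE 0.17, 95% interval -1.17 to -0.48; edgeR, Benjamini-Hochberg adjusted p = 0.00985) and an exact permutation p of 0.0238. The call for C1qc was lost without either of 2 libraries. Without 5XFAD replicate 4 the log2 fold change was -0.75 (edgeR adjusted p = 0.0636), and without 5XFAD;Neu cKO replicate 5, the lowest, it was -0.69 (edgeR adjusted p = 0.0984). In the other 8 fits that left out a library C1qc passed, at an edgeR adjusted p of 0.000787 to 0.0494. The highest of these was without 5XFAD;Neu cKO replicate 4. C1qb passed in all 10 fits that left out a library.

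C1qa encodes the A chain. Its level was 37.2, 49.3, 28.3, 37.7 and 43.5 CPM in 5XFAD and 31.0, 31.1, 31.5, 25.7 and 24.7 CPM in 5XFAD;Neu cKO. The counts were 192, 210, 208, 202 and 194 in 5XFAD and 166, 169, 240, 153 and 172 in 5XFAD;Neu cKO. Again 5XFAD replicate 3 had the lowest CPM of its group and lay among the 5XFAD;Neu cKO libraries, while the other 4 were above all of them. Its TMM-adjusted library total (7361478) was the largest of the 5XFAD group, and its count was not the lowest. The means were 39.2 ± 7.85 and 28.8 ± 3.30 CPM (SD, n = 5) and the log2 fold change -0.44 (SE 0.15, 95% interval -0.75 to -0.13), which missed the threshold over all genes (edgeR, Benjamini-Hochberg adjusted p = 0.390) at an exact permutation p of 0.0317.

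Antisense transcripts limit the reading of C1qb and C1qc. An lncRNA of a later annotation, Gm69251, lies on the opposite strand over the last exons of both genes and not over C1qa. It is annotated at chr4:136606837-136616939, so it begins over C1qb, and its 3′ end, where QuantSeq reads fall, lies in C1qc. Whether any of its reads fell on C1qb, away from that end, was not tested. The strand setting of the counting was not given in the sources used here, so reads of that lncRNA, if there were any, cannot be told apart from reads of C1qb and C1qc. In the last 500 bases of their transcripts the C1q genes shared no 76-base window with any other gene.

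The C1q chains did not shift by the same factor. Since all 3 chains are counted in the same library, their ratios are free of depth and of any scaling, and each ratio is compared here between libraries only, because unlike 3′ ends are not primed equally. The ratio of C1qb to C1qa counts was 0.729, 0.919, 0.606, 0.936 and 0.593 in 5XFAD and 0.349, 0.485, 0.471, 0.431 and 0.512 in 5XFAD;Neu cKO. All 5 libraries of 5XFAD;Neu cKO were below all 5 of 5XFAD, by a mean of -0.74 on the log2 scale (exact two-sided permutation p = 0.00794, adjusted over the 3 ratios 0.0238). Of 14288 genes counted in every library, 0.0210% were separated in this direction when set against C1qa, and 4.15% in either direction. Those in this direction were C1qb, Cenpf and Gm44190, the last 2 with as few as 2 and 3 reads in a library and named after their values were seen. C1qa itself had a lower mean in 5XFAD;Neu cKO (log2 fold change -0.44), so setting genes against it shifts them upward. The share of 0.0210% is therefore low by the choice of reference and is no neutral background for C1qb.

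C1qc moved in the same direction against C1qa, from 0.913 to 1.33 in 5XFAD to between 0.599 and 0.929 in 5XFAD;Neu cKO. The groups overlapped, and the mean difference was -0.40 on the log2 scale (exact permutation p = 0.0159, adjusted over the 3 ratios 0.0238). C1qb against C1qc ranged from 0.593 to 0.941 and from 0.403 to 0.854, and its difference of -0.33 was within the spread between libraries (exact permutation p = 0.175, also after adjustment). Both ratios to C1qa kept p under 0.05 in each of the 10 repeats that left out a library, and C1qb against C1qc reached it in 1, without 5XFAD;Neu cKO replicate 5 (-0.49). The ratios were chosen for comparison after the single genes had been seen.

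**Figure D2:**
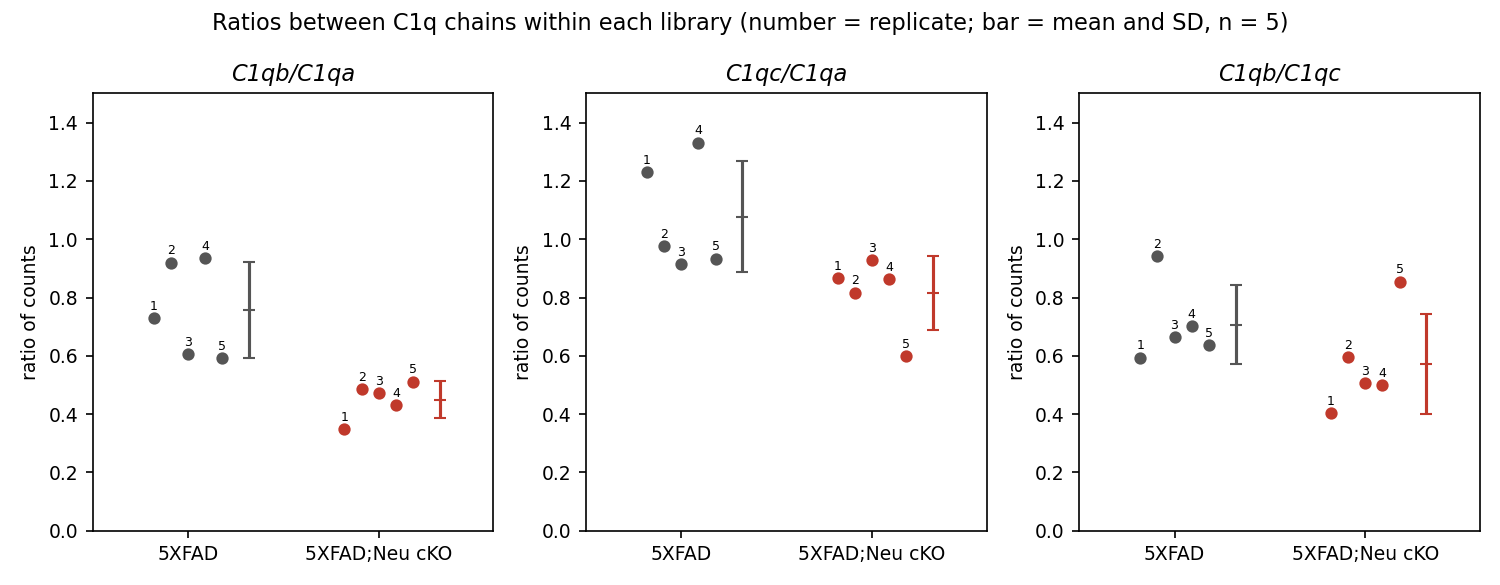
Ratio of counts between pairs of C1q chains (vertical axis, no unit) in each library, with the replicate number beside each point and the mean and SD of 5 libraries as bars. C1qb/C1qa is 0.349 to 0.512 in all libraries of 5XFAD;Neu cKO and 0.593 to 0.936 in 5XFAD, while C1qb/C1qc overlaps between the groups.

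As a share of all reads on the 3 chains, C1qa made up 35.6% ± 3.94 in 5XFAD and 44.2% ± 2.14 in 5XFAD;Neu cKO (SD, n = 5), without overlap, while C1qb made up 26.5% ± 3.56 and 19.9% ± 3.11 and C1qc 37.8% ± 3.26 and 35.9% ± 4.42. These shares restate the ratios above. Summed, the chains reached 71.2 to 143 CPM in 5XFAD and 52.1 to 75.6 CPM in 5XFAD;Neu cKO.

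Microglial transcripts moved with the C1q chains. A list of 19 microglial markers that holds no complement gene had 18 genes in the data, all 18 with a lower mean in 5XFAD;Neu cKO, 6 of them past the threshold and none higher, and a median log2 fold change of -0.62. The 6 were Ctss (-0.91), a lysosomal cysteine protease, Tyrobp (-1.10), the signalling adaptor of TREM2, Mpeg1 (-1.21), a pore-forming protein of phagosomes, Csf1r (-0.65), a growth factor receptor that keeps microglia alive, Cx3cr1 (-0.51), the fractalkine receptor, and Laptm5 (-0.67), a lysosomal membrane protein. Their summed level was 544 to 777 CPM in 5XFAD and 363 to 439 CPM in 5XFAD;Neu cKO, without overlap. Not all markers were lower to a like degree, with P2ry12, a purinergic receptor of resting microglia, at -0.31 and Trem2 at -0.96, neither past the threshold (edgeR, Benjamini-Hochberg adjusted p of 0.744 and 0.0994).

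Set against the summed microglial markers, the difference in C1qb was -0.52 on the log2 scale, in C1qc -0.18 and in C1qa 0.22, and the groups overlapped for each of them. C1qb was 3.14% to 6.17% of the marker sum in 5XFAD and 2.49% to 3.72% in 5XFAD;Neu cKO. Against the 12 markers that did not pass the threshold the differences were -0.70, -0.37 and 0.033, again with overlap. These 12 were picked by the same comparison between the groups. Leaving out the markers called lower moves every difference downward by that choice, so this shift is no separate result. How far the microglial content of the tissue enters the difference in C1q was not tested beyond these values.

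**Figure D3:**
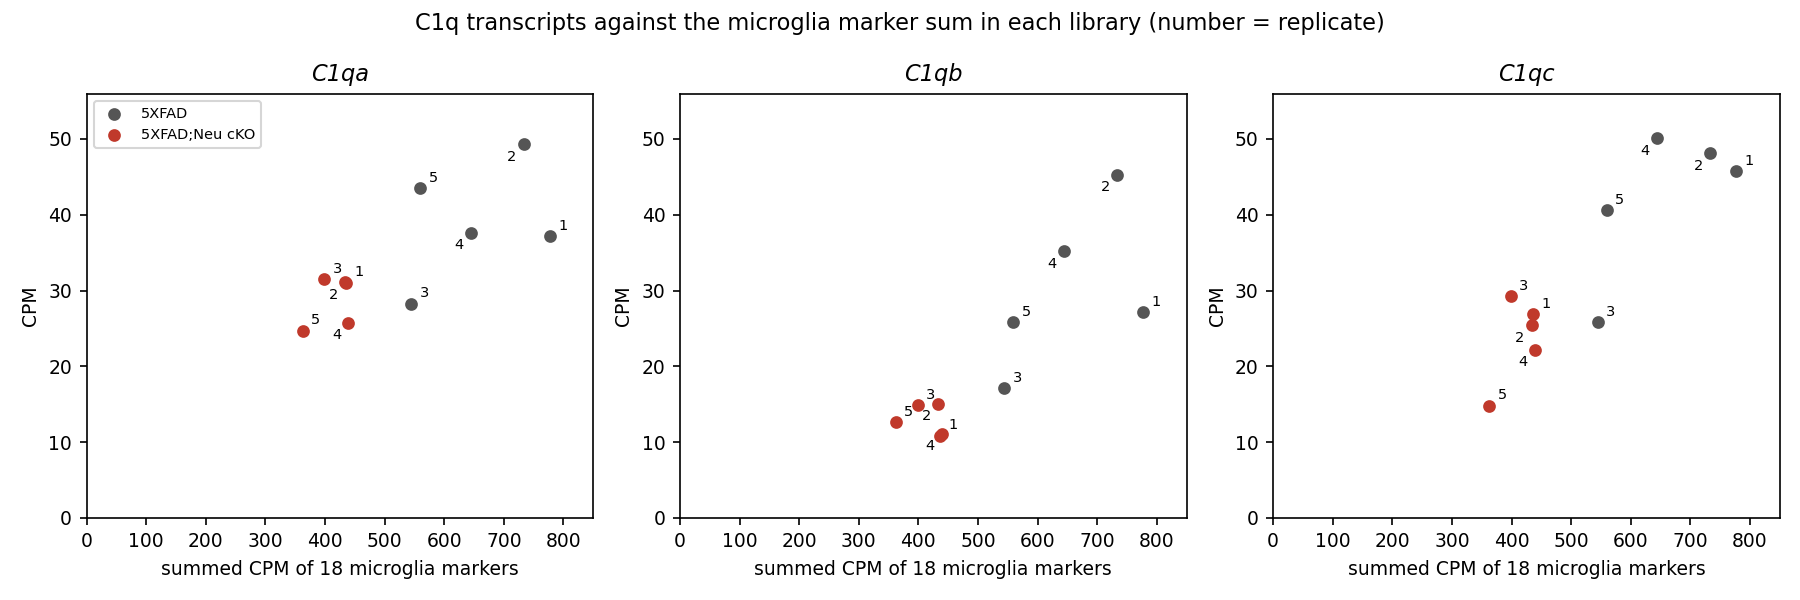
CPM of C1qa, C1qb and C1qc (vertical axis) against the summed CPM of 18 microglial markers (horizontal axis), both linear from 0, for the 10 libraries with replicate numbers. The 5XFAD;Neu cKO libraries lie at 363 to 439 CPM of markers and the 5XFAD libraries at 544 to 777, with 5XFAD replicate 3 the nearest to the other group in all 3 panels.

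Summed markers of the other cell types looked at overlapped between the groups. Border macrophage markers summed to 6.57 to 14.5 CPM in 5XFAD and 10.1 to 17.5 in 5XFAD;Neu cKO, with 0 of 6 past the threshold, and those of neutrophils to at most 2.17 and 1.71 CPM, with Retnlg at 0 in all libraries. Astrocyte markers summed to 4374 to 5117 and 4245 to 4864 CPM, and 1 of 9 passed, Gfap (-0.88), an intermediate filament that rises in reactive astrocytes. Of the 9, 8 had a lower mean in 5XFAD;Neu cKO and 4 an unadjusted edgeR p under 0.05, with a median log2 fold change of -0.13. Oligodendrocyte markers summed to 1638 to 2413 and 1549 to 2418 CPM with 0 of 5 past the threshold, but all 5 had a lower mean and 3 an unadjusted edgeR p under 0.05, with a median of -0.28. Their part in the values of C4b, which these cells also make, was not tested. Endothelial markers summed to 248 to 330 and 259 to 291 with 0 of 6, and fibroblast markers to 37.9 to 61.7 and 46.6 to 55.7 with 0 of 6. Mural cells (96.2 to 124 against 103 to 123 CPM), choroid plexus (25.5 to 68.9 against 11.6 to 138) and neurons (4589 to 5011 against 4272 to 4788) also overlapped, with 0 markers past the threshold. Of the 6 neuron markers 3 had a higher and 3 a lower mean in 5XFAD;Neu cKO. An unadjusted edgeR p under 0.05 was reached by 3 of them, in both directions, with a median log2 fold change of 0.04. The highest genes of these lists also did not pass, with log2 fold changes of -0.04 for Slc1a2, -0.09 for Mrc1, -0.16 for S100a8, -0.28 for Mbp, 0.01 for Flt1, 0.13 for Col1a2, 0.09 for Rgs5, 0.14 for Ttr and -0.20 for Syt1.

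Downstream of C1q, C4b and C3 gave different pictures. C4b (ENSMUSG00000073418, chr17:34947354-34962912, 41 exons) encodes the C4 that the C1 complex cleaves. Its level was 11.0, 13.4, 5.98, 6.34 and 17.1 CPM in 5XFAD and 5.61, 9.56, 8.80, 5.22 and 3.59 CPM in 5XFAD;Neu cKO. The groups overlapped widely, since 5XFAD replicates 3 and 4 lay below 2 of the 5XFAD;Neu cKO libraries. The means were 10.8 ± 4.72 and 6.56 ± 2.53 CPM (SD, n = 5), and the log2 fold change of -0.70 (SE 0.32, 95% interval -1.34 to -0.06) did not pass (edgeR, Benjamini-Hochberg adjusted p = 0.553; exact permutation p = 0.119). Its near copy C4a was counted 22 times in all. In the last 500 bases of the C4b transcripts 234 of 850 windows of 76 bases (27.5%) also occur in C4a, so reads there could be shared between both genes or lost from the count.

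C3 (ENSMUSG00000024164, chr17:57510964-57535155, 41 exons), the protein on which all branches of the cascade converge, was all but absent from these libraries, with 1 read in 5XFAD replicate 3, 1 in 5XFAD;Neu cKO replicate 5 and 0 in the other 8. A count of 0 allows up to 0.394 to 0.704 CPM in a library (3 counts of its TMM-adjusted total, counting error only). A level below that was not detectable at this depth, and no fold change was computed.

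The receptors for the small fragments were also scarce. C3ar1 (ENSMUSG00000040552, chr6:122823393-122833122, 2 exons), the receptor for C3a on microglia and other myeloid cells, stood at 8.91, 3.75, 2.17, 5.03 and 8.30 CPM in 5XFAD and 4.30, 3.86, 2.23, 2.52 and 1.58 CPM in 5XFAD;Neu cKO. In 5XFAD replicates 1, 4 and 5 were above all 5XFAD;Neu cKO libraries and replicates 2 and 3 were not. The means were 5.64 ± 2.91 and 2.90 ± 1.14 CPM (SD, n = 5). The log2 fold change of -0.96 had an SE of 0.45 (95% interval -1.85 to -0.07; edgeR, Benjamini-Hochberg adjusted p = 0.566; exact permutation p = 0.111), on 11 to 46 reads per library.

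C5ar1 (ENSMUSG00000049130, chr7:15980668-15993465, 2 exons), the receptor for C5a, was counted 2, 4, 0, 0 and 3 times in 5XFAD and 0, 1, 0, 0 and 0 times in 5XFAD;Neu cKO. With 10 reads in all it was removed before the test. Scaled to the TMM-adjusted library totals, the 9 reads of 5XFAD were 10.6 times the single read of 5XFAD;Neu cKO. The exact 95% counting interval was 1.47 to 464, which leaves out the spread between mice. Even in 5XFAD, 2 of the 5 libraries were at 0.

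Serping1 (ENSMUSG00000023224, chr2:84595705-84620873, 8 exons) encodes C1 inhibitor, which stops the proteases bound to C1q. Its level was 6.40, 9.39, 6.52, 5.22 and 7.18 CPM in 5XFAD and 4.30, 7.17, 8.80, 6.06 and 9.05 CPM in 5XFAD;Neu cKO, and the libraries of both groups were intermixed. The log2 fold change was 0.04 (SE 0.32, 95% interval -0.60 to 0.68; edgeR, Benjamini-Hochberg adjusted p = 0.992; exact permutation p = 0.992), with an interval that takes in changes of more than 0.5 in either direction on the log2 scale.

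The other genes of the cascade, 49 listed by role, gave no call. Of them 31 had more than 10 reads, 20 with a lower and 11 with a higher mean in 5XFAD;Neu cKO. Of all 19268 genes tested, 9651 were lower and 9617 higher. In edgeR 0 of the 31 passed an adjusted p of 0.05, beside 0.218% of all genes. At an unadjusted edgeR p under 0.05 there were 4, beside 7.95% of all genes. DESeq2 gave an adjusted p to only 7 of the 31, and 0 of these passed. The median log2 fold change of the 31 was -0.11. The 18 that could not be tested included 15 at 0 reads, among them Hc, which encodes C5, the alternative pathway genes Cfb and Cfd and the terminal genes C6, C8a and C9.

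By role, 9 genes of initiation were tested, 4 higher and 5 lower. Masp1, a protease of the lectin branch and the highest of them, was at 8.92 ± 2.23 and 8.77 ± 2.21 CPM (SD, n = 5), a log2 fold change of -0.02. C1s1 and Fcna had an unadjusted p under 0.05 (edgeR, 0.0093 and 0.00831; adjusted 0.436 and 0.434) on few reads. C1s1 had 13, 5 and 2 reads in 3 of the 5XFAD;Neu cKO libraries and 0 elsewhere, and Fcna had 5, 7 and 5 reads in 3 of the 5XFAD libraries and 0 elsewhere. In the alternative and terminal branches only Cfp (0.28), which encodes properdin, and C8g (-0.03) could be tested.

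Of the 14 regulators tested 4 were higher and 10 lower. Clu, which encodes clusterin, an inhibitor of the membrane attack complex and a lipoprotein of astrocytes, was the highest, at 556 ± 31.7 CPM in 5XFAD and 490 ± 37.5 CPM in 5XFAD;Neu cKO (SD, n = 5), with a log2 fold change of -0.18 (SE 0.07, unadjusted p = 0.0188, Benjamini-Hochberg adjusted p = 0.483 in edgeR). Of the 6 receptors tested 2 were higher and 4 lower. Itgam, the CD11b chain of complement receptor 3, was at 10.5 ± 3.26 and 6.41 ± 1.51 CPM (SD, n = 5), with a log2 fold change of -0.72 (SE 0.30, unadjusted p = 0.0196, Benjamini-Hochberg adjusted p = 0.488 in edgeR). Cd93, the receptor of highest level, was at 13.7 ± 2.89 and 15.0 ± 2.97 CPM, a log2 fold change of 0.13.

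**Figure D4:**
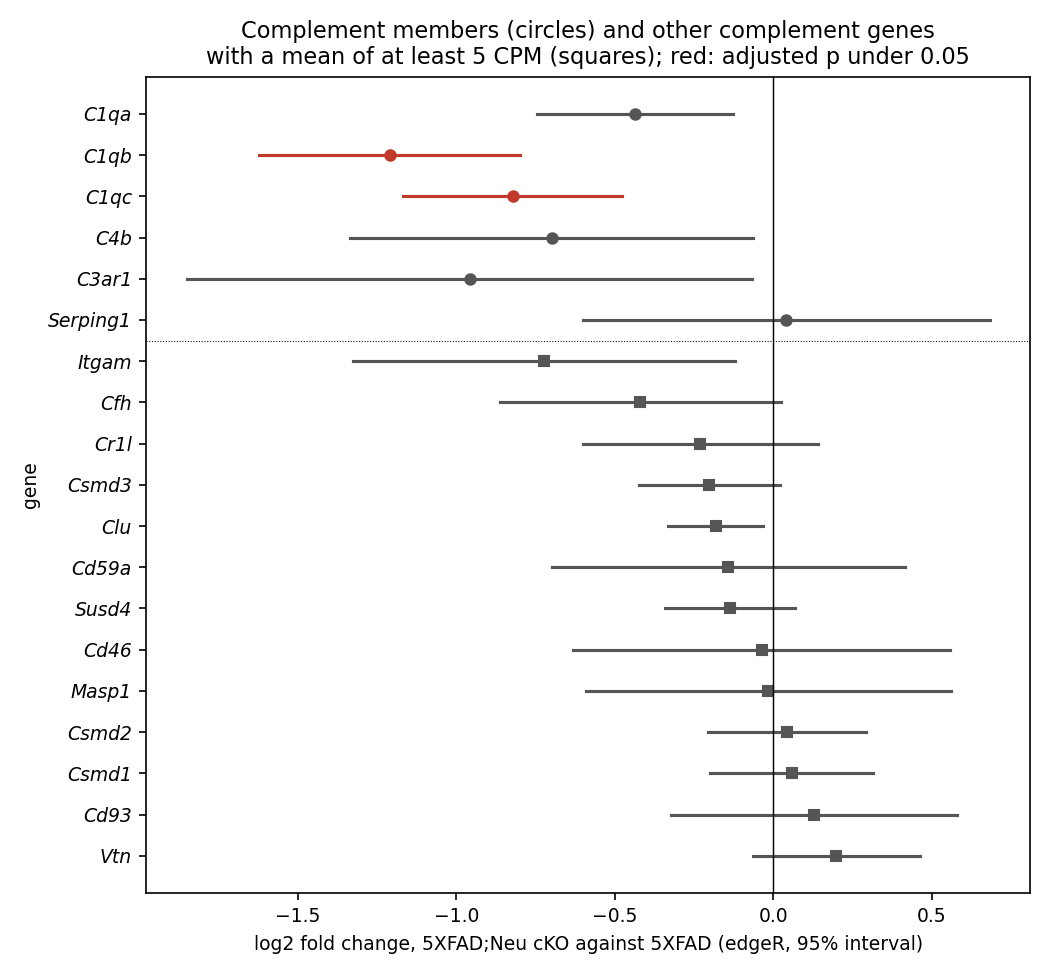
Log2 fold change of 5XFAD;Neu cKO over 5XFAD (horizontal axis) with its 95% interval from edgeR, for the 6 tested members (circles) and the 13 other complement genes with a mean of at least 5 CPM (squares); red marks an adjusted p under 0.05. C1qb (-1.21) and C1qc (-0.82) are the only red points, and Serping1 lies at 0.04.

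Across libraries the CPM of the C1q chains went up and down together, but the chains are all divided by the same library total. In 5XFAD the C1qa counts ran only from 192 to 210, while the TMM-adjusted totals ran from 4261982 to 7361478. How far this shared divisor enters the values of r below was not tested. Over the 10 libraries Pearson's r of log2 CPM was 0.88 for C1qa and C1qb, 0.90 for C1qa and C1qc and 0.87 for C1qb and C1qc, and after subtracting each group's mean it was 0.76, 0.78 and 0.64. With the C1q chains, r of C4b was 0.64 to 0.85, and 0.42 to 0.79 within groups, that of C3ar1 was 0.54 to 0.76, and 0.15 to 0.63 within groups, and that of Serping1 was -0.14 to 0.22, and -0.20 to 0.42 within groups. With the microglial marker sum r was 0.77 for C1qa, 0.87 for C1qb and 0.88 for C1qc, and 0.46, 0.49 and 0.66 within groups. These are descriptions over 10 points that share depth, tissue and the difference between the groups.

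Among 8838 other genes with a mean of at least 10 CPM, the 5 closest to the mean of the C1q chains over the 10 libraries were Snph (r = 0.92), Cx3cr1 (0.92), Bmp3 (0.91), Paqr7 (0.91) and Rnd2 (0.91). After subtracting the group means they were Golt1b (0.97), Dnajb2 (0.93), Tmed10 (0.91), Paqr7 (0.90) and Tmem250 (0.90). Cx3cr1 alone of these is a microglial marker, and it alone passed the threshold between the groups.

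The split of reads between mt-Nd3 and Gm28438 was taken into account in further fits. With it as a covariate the log2 fold change was -1.36 for C1qb and -0.86 for C1qc, both past the threshold (edgeR, Benjamini-Hochberg adjusted p = 0.000329 and 0.0276), -0.52 for C1qa, -0.63 for C4b, -0.58 for C3ar1 and -0.11 for Serping1. Within the libraries with most reads on mt-Nd3, 1 of 5XFAD against 4 of 5XFAD;Neu cKO, C1qb was at -1.87 and C1qc at -1.05. Within those with most reads on Gm28438, 4 of 5XFAD against 1 of 5XFAD;Neu cKO, they were at -0.80 and -0.67. Each of these fold changes sets several libraries against a single one, whose spread is unknown, so no p-value is given with it.

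DESeq2, the tool named in the study's methods, called 0.265% of the genes tested lower in 5XFAD;Neu cKO. C1qc was among them (Benjamini-Hochberg adjusted p = 0.0103) and C1qa was not (0.203). Only 5820 of the 19268 genes were given an adjusted p at the default settings, so the share among genes that could be called was larger. C1qb was given no adjusted p at the default settings, because its mean normalized count of 121 fell short of the minimum of 126 that DESeq2's independent filtering had set, although its unadjusted p was 2.47e-07. With the filtering set for a threshold of 0.05 the minimum was 114 and the adjusted p of C1qb in DESeq2 was 0.000153, and without filtering it was 0.000476.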

How the data were processed

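Total RNA of cortex was made into QuantSeq 3′ FWD libraries and sequenced as single reads on a NextSeq 500 by the maker of the kit, on the authors' order. The authors removed adapter and poly(A) sequence (bbduk), aligned to GRCm39 with STAR 2.7.3a (as also in the submitters' processing notes, which give HTSeq 0.9.1) and counted reads per Ensembl gene with htseq-count. The deposited values are these raw counts, with no normalization. Reads placed on no gene, 31.3% to 39.9% of those kept, entered neither library sizes nor tests.

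Symbols were taken from a later annotation of GRCm39 (52610 of 53700 identifiers), and promoter sequences are RefSeq's. Genes with a total count of 10 or less were removed. The remaining 19268 genes were tested in edgeR 4.0.16 under R 4.3.3 (quasi-likelihood test, TMM, condition only), with Benjamini-Hochberg adjustment over all of them and a threshold of 0.05. EdgeR's common biological coefficient of variation came to 0.281. Log2 CPM used a prior count of 2. The scripts were tested on simulated data. The members, the lists of other complement genes and of cell markers, and the ratios were chosen with earlier results of these data known. Genes named are the members, Mylip, complement genes at an unadjusted p under 0.05 or highest in their role, markers past the threshold or highest in their list, and the 5 most like the C1q chains by 2 measures. P2ry12, Trem2 and the zero-count genes were named after their values were seen.

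Alternatives were DESeq2 1.42.0, other normalizations and filters, a robust fit, no mitochondrial genes, the split of reads between mt-Nd3 and Gm28438 as a covariate, the replicate number as a block and each library left out. Fits within each side of that split and DESeq2's filter settings were added after seeing the data. Replicate numbers did not pair the libraries (r of same-numbered deviations -0.028 to 0.011). P-values set a difference against the spread between these mice. In edgeR the estimate of that spread draws on all genes tested, and the permutation test uses only relabellings of the libraries. The proteomic, histological and single-nucleus data were not analysed here.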

Additional observations from a re-analysis of the deposited data

Results flagged for a closer look

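Of 24 groups of 5 libraries in which single values were looked at, 3 had a library far from the others, where chance gives about 1 in 20. All 3 are a single read in a gene at 0 in the other 4 libraries of its group. C3 stood at 0.136 CPM in 5XFAD replicate 3 and at 0.144 CPM in 5XFAD;Neu cKO replicate 5, and C5ar1 stood at 0.184 CPM in 5XFAD;Neu cKO replicate 2. Each lies under the level that a count of 0 allows (0.394 to 0.704 CPM), so these values set no library apart.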

How the results depend on the processing

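Of the members, 2 passed in edgeR and 1 in DESeq2, which gave C1qb no adjusted p, and 1 to 2 passed when a library was left out. C1qb passed under all 7 other settings chosen at the start that gave it an adjusted p (6.31e-07 to 0.00364) and C1qc under all 8 (0.000145 to 0.0294), while C1qa passed under none (0.203 to 0.396). Within the libraries with most reads on Gm28438, 1 of them of 5XFAD;Neu cKO, the log2 fold changes were nearer 0 than over all libraries. They were -0.80 for C1qb, -0.67 for C1qc and -0.23 for C1qa, beside -1.21, -0.82 and -0.44 over all libraries. Within those with most reads on mt-Nd3, 1 of them of 5XFAD, they were -1.87, -1.05 and -0.80. Serping1, near 0, changed sign with the mt-Nd3 and Gm28438 split as a covariate (-0.11), within the libraries with most reads on mt-Nd3 (-0.40) and when a library was left out (-0.064 to 0.17). The count over all genes was 42, and became 73 with DESeq2, 69 with its filter set for 0.05, 103 without a filter on low counts, 112 with the replicate block, 91 with that covariate, 2 within Gm28438 libraries, 242 within mt-Nd3 libraries (1 of 5XFAD) and 26 to 72 without a library. The counts within Gm28438 libraries and within mt-Nd3 libraries each come from a fit with 1 library in a group, whose spread is unknown. No conclusion is drawn from those counts. With the replicate block 2 members passed, as without it. Counts of 11 to 76 reads per library limit C4b, C3ar1 and Serping1, and C3 and C5ar1 are below what this depth can compare.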
